A study of Mus musculus with 8 samples.

Results

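Olfr1507, Olfr1508 and Olfr1509 are the odorant receptor (OR) genes of mouse chromosome 14 that depend on the H element. They were chosen by name, as the transcript clusters annotated to these single symbols. Each of the 3 genes had 1 such cluster (10419723, 10419719 and 10414700), out of 1023 clusters with a single OR symbol and 21789 clusters with a single gene symbol of any kind. Messenger RNA of dissected olfactory mucosa was measured at postnatal day 26 on Affymetrix Mouse Gene 1.0 ST arrays, 1 array per mouse, on a mixed 129 x C57BL/6J background. The 4 knockouts were OmpCre:Lhx2(fl/fl), in which Cre made from the Omp locus can remove the floxed first exons of both Lhx2 alleles in mature olfactory sensory neurons (OSNs). The 4 littermate controls could lose at most 1 allele: 3 were OmpCre:Lhx2(fl/+), and 1 (control replicate 1) was Lhx2(fl/+) without Cre. Both groups carried floxed alleles, so no mouse was free of them. Per the study, OmpCre recombines in only a part of the mature OSNs, basal cells keep the gene, and the mucosa holds many cells besides OSNs. The question asked of these mice was whether OR mRNAs still need Lhx2 once an OSN has matured.

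An OSN expresses 1 allele of 1 OR gene, and enhancers shared by clusters of OR genes take part in that choice. The H element was the first such enhancer to be described in mice. It lies upstream of Olfr1507, and mice lacking it lose expression of the 3 nearest receptors, while receptors farther along the same gene cluster are still expressed. OR enhancers of this kind carry homeodomain sites, bound by Lhx2 with its cofactor Ldb1, next to sites for Ebf factors. Olfr1507 is better known as MOR28, a receptor of the ventral zone of the epithelium, Olfr1508 as MOR10 and Olfr1509 as MOR83. Olfr1509 is also listed as MOR244-3, a receptor that uses copper to detect (methylthio)methanethiol, a sulphur compound of male mouse urine.

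In RefSeq gene order the MOR28 gene cluster runs Olfr1513, Olfr1512, Olfr1511, Olfr1510, Olfr1509, Olfr1508 and Olfr1507. The promoter windows of the trio are shown because homeodomain sites of the kind bound by Lhx2 have the core TAAT. RefSeq windows (GRCm38.p6, 250 bases before to 50 after the annotated gene start) were at hand for Olfr1508, at chr14:52467412-52467711 on the minus strand, and Olfr1509, at chr14:52450143-52450442 on the plus strand, while Olfr1507 had no entry. Each is written 5′ to 3′ along its gene, with every TAAT core, on either strand, in capitals.
Olfr1508: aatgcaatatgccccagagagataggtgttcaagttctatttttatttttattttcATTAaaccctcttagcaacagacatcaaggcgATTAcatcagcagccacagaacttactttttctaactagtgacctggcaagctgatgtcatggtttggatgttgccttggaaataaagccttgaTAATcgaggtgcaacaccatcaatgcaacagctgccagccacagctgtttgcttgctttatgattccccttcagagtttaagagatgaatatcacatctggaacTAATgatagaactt
Olfr1509: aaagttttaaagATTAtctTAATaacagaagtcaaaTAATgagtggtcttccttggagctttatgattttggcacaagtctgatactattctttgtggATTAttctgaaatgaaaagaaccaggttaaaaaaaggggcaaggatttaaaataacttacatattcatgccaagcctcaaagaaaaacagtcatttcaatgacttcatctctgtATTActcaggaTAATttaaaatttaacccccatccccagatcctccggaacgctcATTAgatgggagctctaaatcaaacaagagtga

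The Olfr1508 window held 4 TAAT cores and the Olfr1509 window 7. The core is common: it was in 94.5% of 944 Olfr windows and in 58.0% of all 32851 windows of the table. The longer homeodomain form TAATGA, which contains the core, was present at 2 places in each of the 2 windows, against 28.8% of Olfr windows and 9.78% of all windows with at least 1 match. TAATTA (18.6% of Olfr windows, 5.29% of all) and TAATTG (23.2% and 8.0%) had no match in either window. The O/E-like pattern CCCNNGGG (3.07% of Olfr windows, 13.7% of all) was not matched either, and nor was TATAAA (41.2% and 13.6%). All patterns were searched on both strands. A match is only a run of letters, and the H element itself lies outside these windows.

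Lhx2, the deleted gene, was measured first. Its log2 values were 12.03, 11.99, 12.17 and 12.16 in knockout replicates 1 to 4, against 12.39, 12.33, 12.29 and 12.33 in control replicates 1 to 4. The groups did not overlap, and the change was -0.25 ± 0.06 (SE; adjusted p = 0.0383 by limma). That call was lost with any mouse but knockout replicate 3 left out (adjusted p = 0.0566 to 0.130), and relative to the mature OSN markers Lhx2 was higher, by 0.27. The cluster's value combines all exons, of which only the first are floxed.

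All 3 H-element receptors fell in the knockouts, to between 20.6% and 26.3% of the control level. Each was called lower, at an adjusted p under 0.05 by limma over 23410 named clusters. The background for that call was high among ORs: 83.4% of the 1023 OR clusters were called lower, against 6.29% of all named clusters (8.39% were called in either direction and 2.1% higher). The call itself is thus no distinction of the trio, and the sizes of its decreases are given gene by gene. Levels are not compared between receptors, because each has its own probes.

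Olfr1507 (MOR28), the receptor nearest the H element, had log2 values of 8.21, 7.88, 8.29 and 7.92 in knockout replicates 1 to 4. In control replicates 1 to 4 they were 10.57, 10.38, 10.41 and 10.05. The highest knockout lay 1.77 below the lowest control, which was control replicate 4. The group means were 8.08 ± 0.21 in knockouts and 10.35 ± 0.22 in controls (SD, n = 4 each). The change was -2.28 ± 0.13 (SE; 95% interval -2.56 to -1.99; adjusted p = 2.94e-06 by limma), or 4.85-fold lower.

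Olfr1508 (MOR10), the next receptor along, had values of 7.56, 7.32, 7.14 and 7.03 in the knockouts and 9.58, 9.19, 9.42 and 9.51 in the controls. The groups were 1.63 apart at their nearest, and control replicate 2 was the lowest control. Means were 7.26 ± 0.23 in knockouts and 9.43 ± 0.17 in controls (SD, n = 4 each). The change was -2.16 ± 0.12 (SE; 95% interval -2.44 to -1.89; adjusted p = 3.11e-06 by limma), or 4.48-fold lower.

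Olfr1509 (MOR83), whose promoter window lies on the opposite strand, had values of 5.63, 5.91, 5.75 and 6.01 in the knockouts and 7.90, 7.86, 7.41 and 7.83 in the controls. Here control replicate 3 stood below the other controls, though still 1.40 above the highest knockout. Means were 5.82 ± 0.17 in knockouts and 7.75 ± 0.23 in controls (SD, n = 4 each). The change was -1.93 ± 0.12 (SE; 95% interval -2.20 to -1.65; adjusted p = 5.41e-06 by limma), or 3.80-fold lower.

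**Figure D1:**
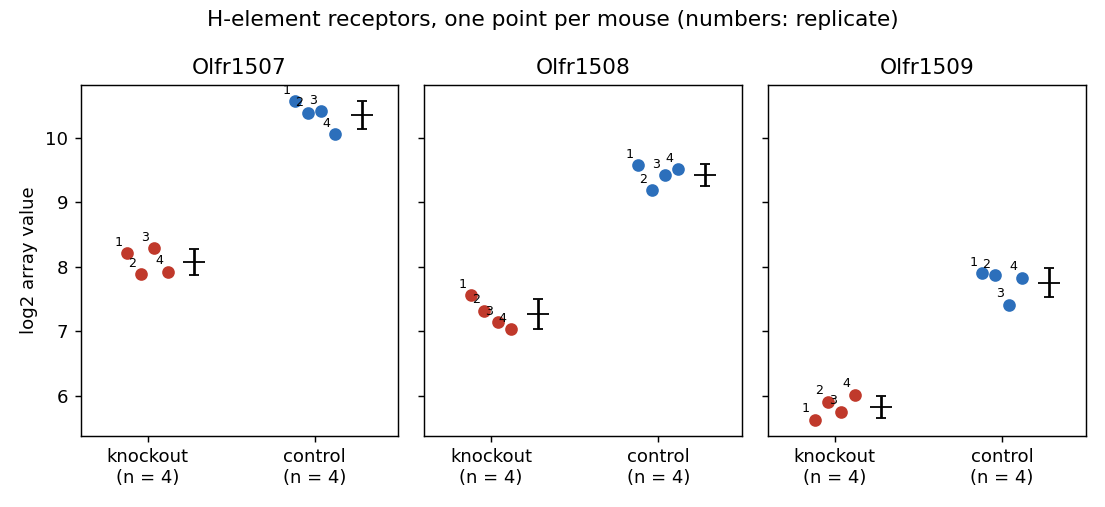
Log2 array value (y axis) of Olfr1507, Olfr1508 and Olfr1509 in 4 knockouts (red, left) and 4 controls (blue, right), 1 numbered point per mouse, with the group mean and SD as bars. In each panel all knockouts lie below all controls, by 1.77, 1.63 and 1.40 at the nearest.

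For all 3 receptors every knockout lay below every control, which was also so for 84.6% of OR clusters and 7.83% of all named clusters. The order of the mice within a group differed between the receptors. Among knockouts the lowest value was in replicate 2 for Olfr1507, in replicate 4 for Olfr1508 and in replicate 1 for Olfr1509. Averaged over the trio, the per-mouse level ran from 6.99 to 7.13 in knockouts and from 9.08 to 9.35 in controls. The control without Cre was the highest control for each gene, and lay 0.29, 0.21 and 0.20 above the mean of the controls with Cre. Without that mouse the 3 receptors were still called lower (changes of -2.20 for Olfr1507, -2.11 for Olfr1508 and -1.88 for Olfr1509).

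Among the 1023 OR clusters ranked by their change, Olfr1507 stood at rank 8, Olfr1508 at 21 and Olfr1509 at 60, counted from the largest decrease. Put as shares, 0.684%, 1.96% and 5.77% of OR clusters had a larger decrease. The other 1020 OR clusters had a median change of -1.04, with quartiles of -1.42 and -0.67 and a range from -2.78 to 0.31. Olfr541 (-2.78) and Olfr727 (-2.68) were at the far end. Directly around the trio in this ranking stood Olfr1294 (-2.35) and Olfr1097 (-2.27) beside Olfr1507, Olfr1463 (-2.17) and Olfr195 (-2.15) beside Olfr1508, and Olfr1154 (-1.93) and Olfr742 (-1.92) beside Olfr1509.

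**Figure D2:**
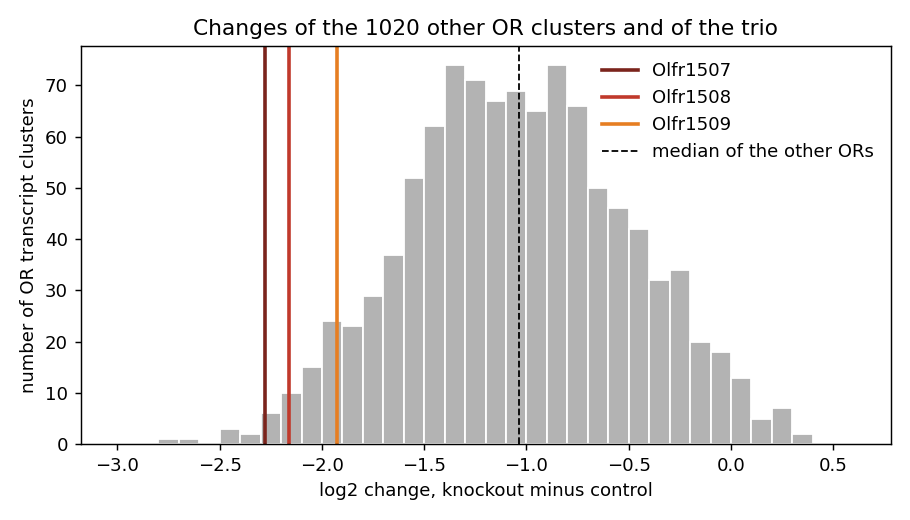
Histogram of the log2 change (knockout minus control, x axis) of the 1020 other OR transcript clusters (y axis, number of clusters), with coloured lines for the trio and a dashed line for the median of the others. The trio, at -2.28, -2.16 and -1.93, lies in the left tail, away from the median of -1.04.

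The trio was then set against the rest of the family within each mouse, as the log2 value of a receptor minus the mean of the other 1020 OR clusters on the same array. Knockout minus control, that value changed by -1.23 for Olfr1507, with 0.99 ± 0.18 in knockouts and 2.23 ± 0.25 in controls (SD, n = 4 each). For Olfr1508 it changed by -1.12 (0.18 ± 0.20 in knockouts and 1.30 ± 0.13 in controls), and for Olfr1509 by -0.88 (-1.26 ± 0.22 in knockouts and -0.38 ± 0.21 in controls). Each gave p = 0.0286 in an exact two-sided permutation test over 70 assignments of the mice, the smallest p this design allows, and the same value after adjustment over the 3 receptors. The groups did not overlap for any of them, which by itself gives this smallest p. How many other ORs separate in this way on this scale was not counted. The decrease of each receptor beyond the family mean was thus larger than the spread between mice, and corresponds to 2.35-fold, 2.17-fold and 1.85-fold. With every array centred on its OR mean, limma called the 3 receptors lower again (adjusted p up to 7.97e-06), as it did 31.6% of OR clusters and 1.71% of all named clusters.

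The comparison was repeated with narrower references, 2 of them added after the data had been seen. Against the other 886 class II ORs, the large mammalian class to which the trio belongs, the differences were -1.20 (Olfr1507), -1.09 (Olfr1508) and -0.85 (Olfr1509), each with an exact permutation p = 0.0286. Against the other 32 OR clusters of chromosome 14 they were -0.92 for Olfr1507 and -0.81 for Olfr1508 (exact permutation adjusted p = 0.0429 for both) and -0.57 for Olfr1509, which did not pass (exact permutation adjusted p = 0.0571). Against the other 4 clusters of the MOR28 gene cluster they were -1.05 for Olfr1507 and -0.70 for Olfr1509 (exact permutation adjusted p = 0.0429 for both) and -0.93 for Olfr1508, which did not pass (exact permutation adjusted p = 0.0571). How many other ORs would pass against these references was not counted either.

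The 3 receptors were also compared with each other, as differences of their changes within mice. Olfr1507 minus Olfr1508 was -0.12 (95% interval -0.58 to 0.35), Olfr1507 minus Olfr1509 was -0.35 (-0.94 to 0.24) and Olfr1508 minus Olfr1509 was -0.23 (-0.81 to 0.34). None of the 3 pairs passed an exact permutation test (p = 0.571, 0.200 and 0.343, adjusted p = 0.571, 0.514 and 0.514). The order of the 3 decreases is thus within the spread between mice, and the intervals leave room for differences of up to 0.94 on the log2 scale.

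Within the MOR28 gene cluster the receptors beyond the trio fell less on the deposited scale. Olfr1510, the first receptor past Olfr1509, had values of 8.23, 8.27, 8.96 and 8.15 in knockouts against 9.84, 9.93, 9.35 and 9.71 in controls. Knockout replicate 3 stood above the other knockouts, and the groups did not overlap. Its change was -1.30 ± 0.19 (SE; adjusted p = 0.00107 by limma). Olfr1512, farther along, had 7.27, 7.66, 7.52 and 7.11 in knockouts against 8.48, 8.77, 7.87 and 8.47 in controls, with control replicate 3 the lowest control. Its change was -1.01 ± 0.19 (SE; adjusted p = 0.00581 by limma).

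The remaining 2 clusters each match 2 receptors of the gene cluster and cannot be assigned to either. They changed by -1.67 ± 0.20 and -0.93 ± 0.17 (SE), and both were called lower, so all 4 clusters outside the trio were called, as in 83.4% of ORs. None of the 4 had a decrease as large as that of Olfr1509. Relative to the mean of all OR clusters, Olfr1510 was at -0.26 (adjusted p = 0.132 by limma) and Olfr1512 at 0.04 (adjusted p = 0.814 by limma), and 1 of the 4, a cluster matching 2 receptors, was called lower. Of all OR clusters, 31.6% were called lower relative to that mean. With the methods' t-test, 2 of the 4 were called, beside 724 of the 1023 OR clusters called lower.

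The genes flanking the OR cluster had no such change. Of the 20 nearest measured protein-coding genes outside the OR family, 10 on either side, limma called none lower and none higher (0 at an unadjusted p under 0.05, and 0 by the methods' t-test). Their changes ran from -0.22 to 0.16, with a median of 0.00 beside 0.05 over all named clusters. The nearest on the Olfr1513 side was Sall2, a zinc finger transcription factor (-0.03 ± 0.06, SE). On the side of Olfr1507 and the H element it was Dad1, a subunit of the oligosaccharyltransferase of the endoplasmic reticulum (0.02 ± 0.10, SE). Relative to the mature OSN markers all 20 were called higher, as were 21617 of the 23410 named clusters.

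**Figure D3:**
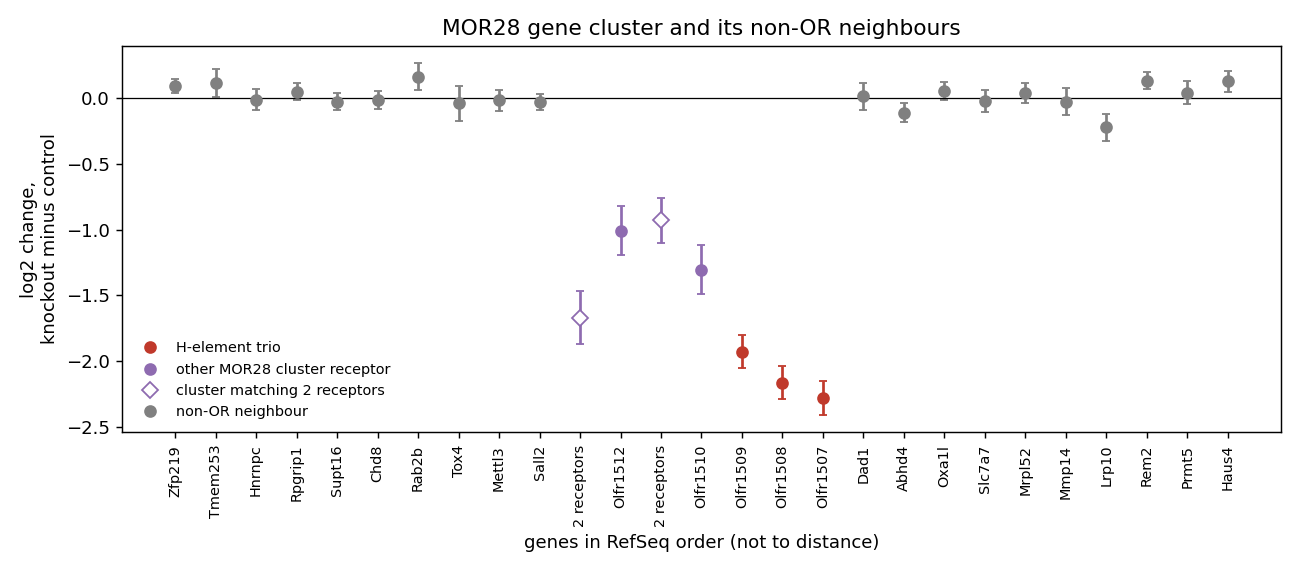
Log2 change (knockout minus control, y axis, bars are SE) of the MOR28 gene cluster and the 10 nearest measured non-OR genes on each side, in RefSeq gene order and not to distance (x axis). The trio (red) lies at -1.93 to -2.28 and the other receptors of the gene cluster (purple, open symbols for clusters matching 2 receptors) at -0.93 to -1.67, while the flanking genes (grey) lie near 0.

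Large decreases were not limited to the trio on this chromosome. Of 30 OR clusters of chromosome 14 outside the MOR28 gene cluster, 28 were called lower and 0 higher (median -1.27, range -2.68 to -0.50), beside 83.4% of all OR clusters and 6.29% of all named clusters called lower. With arrays centred on the OR mean, 15 of the 30 were lower and 4 higher, beside 31.6% of the 1023 OR clusters lower and 314 of them higher. Olfr727 (-2.68 ± 0.19, SE) and Olfr729 (-2.41 ± 0.14, SE) fell by more than Olfr1507 on the log2 scale, 3 clusters by more than Olfr1508 and 6 by more than Olfr1509. The 2 that were not called were Olfr736 (-0.50 ± 0.14, SE; adjusted p = 0.0635 by limma) and Olfr49 (-0.56 ± 0.30, SE; adjusted p = 0.379 by limma), the next receptor after Olfr1507 in gene order, past Dad1.

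**Figure D4:**
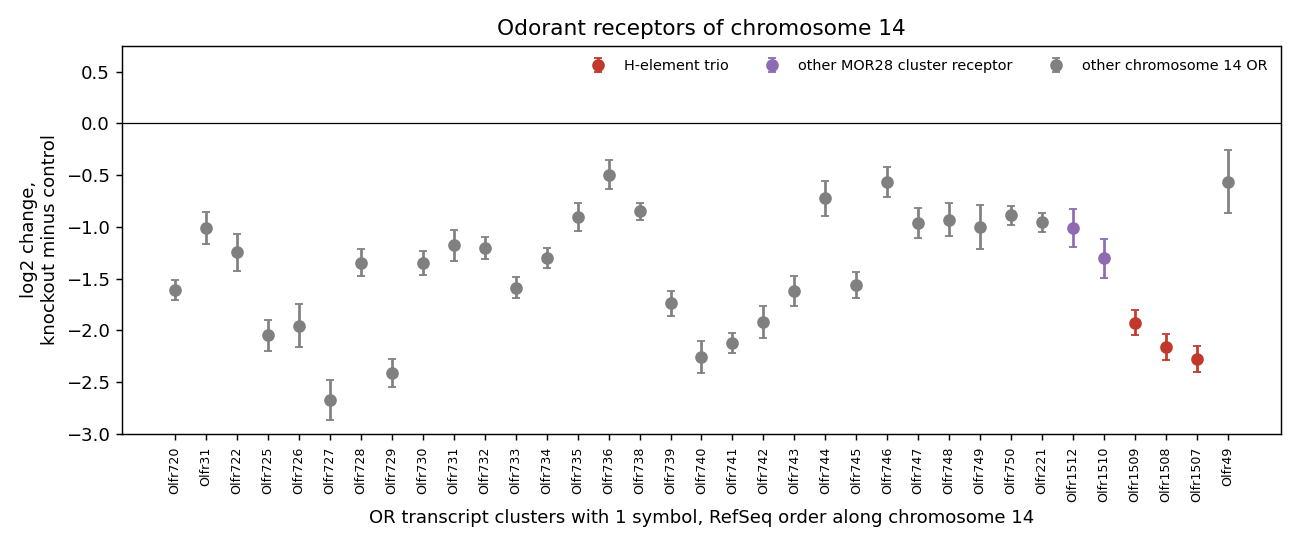
Log2 change (knockout minus control, y axis, bars are SE) of the 35 single-symbol OR clusters of chromosome 14 in RefSeq gene order (x axis). The trio (red) is at -1.93 to -2.28, the other MOR28 cluster receptors (purple) at -1.30 and -1.01, and grey clusters reach from -2.68 (Olfr727) to -0.50 (Olfr736).

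Sample titles carry a mouse number whose first digit is 5 (2 knockouts and 2 controls), 7 (1 and 1) or 9 (1 and 1), and differences were also taken within these title series. What the digit stands for is not given in the labels. Olfr1507 differed by -2.43 in title series 5, -2.12 in 7 and -2.13 in 9. Olfr1508 differed by -1.95, -2.28 and -2.47, and Olfr1509 by -2.12, -1.66 and -1.82. The trio was thus lower in every series. The mean over the 3 genes was similar between series, at -2.16, -2.02 and -2.14, while the single genes varied more and in differing directions. The other 4 clusters of the gene cluster were less even, at a mean of -1.48, -0.56 and -1.39. The one of them with the largest decrease differed by -1.86, -1.03 and -1.92, and so by more than Olfr1509 in title series 9 only. Title series 7, with the smallest difference, holds the highest knockout for Olfr1510 and the lowest control for Olfr1510 and Olfr1512. The other ORs differed by a mean of -1.0, -0.95 and -1.22.

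**Figure D5:**
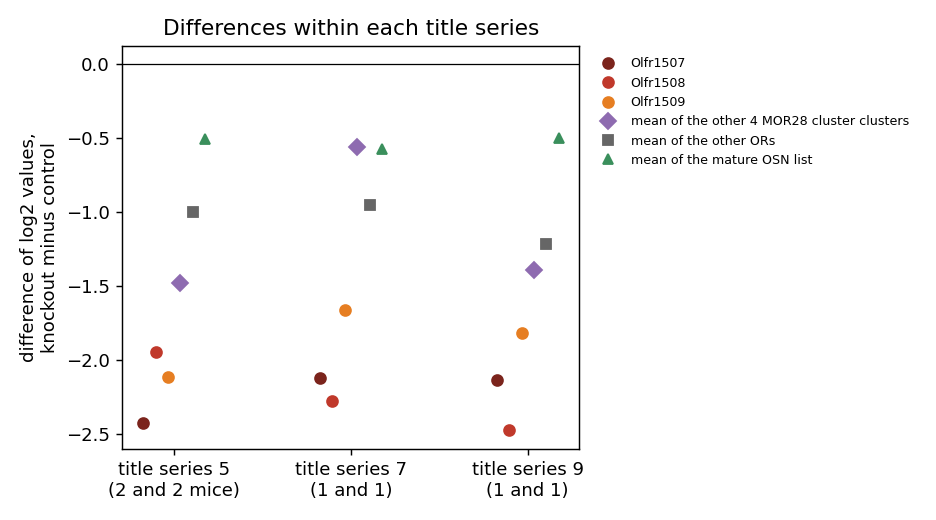
Difference of log2 values, knockout minus control (y axis), within each of the 3 title series (x axis), for the trio and for the means of the other MOR28 cluster clusters, the other ORs and the mature OSN markers. The trio stays between -1.66 and -2.47 in every series, and the other MOR28 cluster clusters range from -0.56 to -1.48.

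In array values of a whole mucosa, fewer OSNs, fewer OSNs that express a given receptor and less receptor mRNA per OSN cannot be told apart. By in situ hybridization in this strain, the study found fewer OSNs labelled for the ORs it tested whose mRNA fell. It read its arrays as a small reduction of mature OSNs. The trio was not among its probes. Genes of mature OSNs also fell: limma called 15 of the 19 markers lower and 0 higher (6.29% and 2.1% of all named clusters), with a median of -0.44 beside 0.05 over all named clusters. The mean of the list was 11.54 to 11.60 in knockouts and 12.08 to 12.11 in controls. Its change was -0.52. This decrease is larger than the reduction the study took from its own, longer set of mature OSN mRNAs. Centring on the 19 markers thus removes more than the study's correction did. Omp, the marker that carries the Cre insertion, had values of 12.88, 12.80, 12.37 and 12.43 in knockouts against 13.78, 13.56, 13.22 and 13.27 in controls. Control replicate 1, which has no Cre and so no insertion at Omp, lay 0.43 above the mean of the controls with Cre. Without that mouse the Omp change was -0.73 in place of -0.84, and was still called. Cnga4, a subunit of the olfactory transduction channel, had the largest decrease of the list (-2.02 ± 0.12, SE), and Gng13, a G protein gamma subunit (-1.0 ± 0.11, SE), Cnga2, the main channel subunit (-0.49 ± 0.05, SE), and Ric8b, a partner of the olfactory G protein (-0.53 ± 0.06, SE), also fell. With arrays centred on the mean of this list, Cnga2 was at 0.03 and Ric8b at -0.01. On that scale Cnga4 (-1.51) and Gng13 (-0.48) were still called lower, and Omp (-0.32) did not pass. With arrays centred on the OR mean Cnga4 (-0.98) alone of these 5 genes stayed below 0.

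The trio fell by more than the mean of these markers, though Cnga4 (-2.02) fell by more than Olfr1509 (-1.93). Relative to the mean of the mature OSN list in the same mouse, Olfr1507 changed by -1.76, Olfr1508 by -1.64 and Olfr1509 by -1.41 (exact permutation p = 0.0286 for each). After centring on the list, 64.6% of OR clusters and 3.63% of all named clusters were still called lower. Within title series 5, 7 and 9 these differences were -1.92, -1.55 and -1.63 for Olfr1507, -1.44, -1.71 and -1.98 for Olfr1508, and -1.61, -1.09 and -1.32 for Olfr1509.

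A list of 11 genes held OR enhancer factors and also relatives or candidates, such as Ldb2 and Emx2, not shown here to act there. Of these, 2 were called lower and 1 higher on the deposited scale, beside 6.29% lower and 2.1% higher of all named clusters. Besides Lhx2, Ebf3, an O/E factor, fell (-0.22 ± 0.05, SE), while Ldb2, a relative of Ldb1, rose (0.53 ± 0.12, SE). With arrays centred on their median neither Ebf3 nor Lhx2 passed, and both were above 0 relative to the mature OSN list. With any mouse but control replicate 3 left out, Ebf3 did not pass (adjusted p up to 0.122 by limma), and Ldb2 did not pass without knockout replicate 2, knockout replicate 4, control replicate 1 or control replicate 3 (adjusted p up to 0.0758 by limma). Ldb1 (-0.11 ± 0.05, SE; adjusted p = 0.316), Ebf1 (-0.01 ± 0.05, SE; adjusted p = 0.949) and Emx2, the homeodomain factor also studied at ORs (0.17 ± 0.07, SE; adjusted p = 0.203), did not pass in limma.

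Of 13 genes of OR gene choice and receptor handling, 4 were called lower and none higher, beside the same 6.29% and 2.1%. They were Adcy3, the olfactory adenylyl cyclase (-0.98 ± 0.12, SE), Atf5, a factor of the unfolded protein response to ORs (-0.43 ± 0.06, SE), and the receptor transporters Rtp2 (-0.42 ± 0.06, SE) and Rtp1 (-0.33 ± 0.07, SE). Adcy3 and Rtp1 are also on the mature OSN list. Relative to that list Atf5, Rtp2 and Rtp1 were above 0, and the Rtp1 call was lost without control replicate 1 (adjusted p = 0.0517). Kdm1a, the demethylase that opens OR alleles, was at 0.11 ± 0.06 (SE; adjusted p = 0.381 by limma).

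Because Olfr1507 belongs to the ventral zone, zone markers were read beside it. Of 8, 2 were called lower (6.29% of all named clusters were): Nqo1, a quinone reductase of dorsal OSNs (-1.15 ± 0.11, SE), and Robo2, an axon guidance receptor (-0.37 ± 0.06, SE). Relative to the mature OSN list Robo2 was above 0, while Nqo1 was at -0.63 and still called lower. Relative to the OR mean Nqo1 was at -0.10 (adjusted p = 0.338 by limma) and Robo2 at 0.67. Acsm4, another marker of the dorsal zone, was at -0.01 ± 0.08 (SE; adjusted p = 0.982 by limma). Ncam2, an adhesion molecule of ventral OSNs, was at -0.15 ± 0.13 (SE; adjusted p = 0.609 by limma), and Nrp2, a semaphorin receptor higher in ventral OSN axons, at 0.04 ± 0.10 (SE; adjusted p = 0.892 by limma). The nuclear factor I genes Nfia (0.12), Nfib (0.07) and Nfix (-0.19) did not pass.

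Markers of other cells of the mucosa were read beside the trio, with 6.29% of all named clusters called lower and 2.1% higher as the background. Among 12 immature OSN markers 1 was called lower (Stmn4, -0.59 ± 0.13, SE, not called without knockout replicate 2, knockout replicate 4, control replicate 1 or control replicate 2) and 1 higher (Tubb3, a neuronal tubulin, 0.41 ± 0.06, SE). Limma called none of the basal cell (10 measured), sustentacular cell (6), macrophage (7), blood (2) and ensheathing or Schwann cell (4) markers. Among 7 markers of glands and respiratory epithelium it called Foxj1, a regulator of motile cilia, lower (-0.42 ± 0.10, SE), a call that was lost when any mouse but knockout replicate 1 or control replicate 3 was left out. The brightest markers of the uncalled lists lay near 0: Sox2 (0.00) and Mki67 (0.19) for basal cells, Cyp2g1 (0.04) and Cbr2 (0.06) for sustentacular cells, Lyz2 (0.05) and Csf1r (-0.10) for macrophages, Alas2 (0.15) and Epb42 (0.00) for blood, and Fabp7 (0.12) and Sox10 (-0.08) for ensheathing or Schwann cells. The mean level was 12.54 to 12.60 in knockouts and 12.48 to 12.54 in controls for sustentacular cells, and 10.78 to 10.97 in knockouts and 10.86 to 10.95 in controls for immature OSNs. The part of these cells in the trio's decrease was not tested.

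The genes most like each receptor were sought over the 8 arrays, as the root mean square difference between profiles taken relative to each gene's own control mean. For Olfr1507 they were Olfr740 (0.16), Rgs7, a regulator of G protein signalling (0.20), Olfr741 (0.20), Olfr725 (0.20) and Olfr53 (0.21), and 3 of these 5, Olfr740, Olfr741 and Olfr725, lie on chromosome 14 outside the MOR28 gene cluster. For Olfr1508 they were Olfr1463 (0.12), Olfr212 (0.12), Olfr1079 (0.13), Olfr177 (0.15) and Olfr166 (0.16), on chromosomes 19, 6, 2, 16 and 16. For Olfr1509 they were Olfr211 (0.15), Olfr1428 (0.16), Olfr527 (0.17), Olfr544 (0.17) and Olfr522 (0.18). The trio were not each other's nearest profiles: Olfr1508 was the 15th nearest to Olfr1507 (0.24), and Olfr1509 the 77th (0.39). The measure takes in the size of the decrease, and all 15 of these genes were called lower, with changes of -2.26 to -1.78.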

How the data were processed

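The authors labelled equal amounts of total RNA and combined all exon signals of a gene into 1 log2 value per transcript cluster with Affymetrix Expression Console (version and settings not given in the sources used here). These deposited log2 values (35557 clusters, 2.35 to 14.6) were used unchanged. For its tests the study corrected for mature OSN mRNAs with a list that is not used here. The main limma fit and the t-test here were run without such a correction. A list of 19 markers was used only in the comparisons relative to mature OSNs. Cluster names came from the annotation of the platform and were brought up to date by Entrez ID against RefSeq genes of GRCm38.p6 (21698 of 21789 matched; 1621 clusters had several symbols, 12147 none and were not tested). No genome build was named for the array.

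Knockouts and controls were compared with lmFit and eBayes of limma 3.58.1 (R 4.3.3), without covariates, with Benjamini-Hochberg adjustment over 23410 clusters and calls at an adjusted p under 0.05. Single differences per mouse were compared by exact two-sided permutation over 70 assignments. Intervals of pair differences came from the pooled spread between mice. Alternatives were other scalings, title series as a block, array weights, a filter on dim clusters, all clusters tested, the methods' t-test and each mouse left out. The limma script was tested on simulated data, with 4 knockout against 4 control arrays of 23410 clusters. It found 50.7% of simulated log2 changes of 0.5, 94.0% of those of 1 and 98.5% of those of 2, beside 10 false calls. Only 67, 67 and 66 clusters were changed there, against 1965 called in the data, and the adjusted cut-off depends on that number. These rates are thus a check of the script and not the rates of these data, where small changes may still be missed. Arrays give no counts, so their number limits precision. Receptors of similar sequence can share probes.

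The 3 receptors, the gene lists and the tests were chosen with earlier results of these data known. Named are the trio, Lhx2, Omp, the receptors of the MOR28 gene cluster (consecutive Olfr genes with at most 2 other protein-coding genes between neighbours), the nearest flanking gene on each side, up to 4 called members of each list by smallest p, or its 2 brightest members where none was called, and the 5 nearest profiles. ORs named in the ranking, on chromosome 14 and for values not passing were chosen after their values were seen. Per the study's methods, every litter that gave knockouts also gave controls, though which mice shared a litter was not stated. Replicate numbers follow accession order.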

Additional observations from a re-analysis of the deposited data

Results flagged for a closer look

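Within groups of 4 mice, the gap between the end value and its nearest neighbour, as a share of the group's range, was set against Dixon's critical value at the 95% level for the trio, Lhx2, Omp, Olfr1510 and Olfr1512 (14 groups). Chance alone passes it in about 1 of 20 groups. Olfr1509 in control replicate 3, at 7.41, was far below the other controls (share 0.861), and without this mouse the Olfr1509 change was -2.04 and was still called. Olfr1510 in knockout replicate 3, at 8.96, was far above the other knockouts (share 0.846). Both mice belong to title series 7.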

How the results depend on the processing

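The changes of Olfr1507, Olfr1508 and Olfr1509 kept their direction and call under every alternative that could be run, with ranges of -2.43 to -1.23, -2.26 to -1.12 and -2.04 to -0.88, and adjusted p of at most 0.0011. The filter on dim clusters (mean under the median over named clusters) removed Olfr1508 and Olfr1509 before the fit. Relative to the other reference lists and with 1 mouse left out, the difference of each receptor stayed below 0 (-1.76 to -0.92 for Olfr1507, -1.64 to -0.81 for Olfr1508 and -1.41 to -0.57 for Olfr1509). The call was lost for Olfr1509 against the other chromosome 14 ORs (-0.57) and for Olfr1508 against the other 4 MOR28 clusters (-0.93). Averaging the title series equally, Olfr1507 minus Olfr1508 reversed to 0.0061, with no test.

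Lhx2 no longer passed after centring on the array median (-0.19) or with all clusters tested (-0.25), ran from -0.28 to -0.22 with 1 mouse left out, and was higher after centring on the mature OSN list (0.27) or the OR mean (0.80). Omp no longer passed relative to the mature OSN list (-0.32) or with the methods' t-test (-0.84), and was at 0.21 relative to the OR mean. Counts of 1965 called clusters, 853 ORs lower, 0 ORs higher (4 at an unadjusted p under 0.05 in limma) and 4 other MOR28 clusters lower moved with scaling by construction: centring on the mature OSN list gave 22466 called and 81 ORs higher (median shift 0.57), and on the OR mean 22903 called, 323 ORs lower, 314 higher and 1 MOR28 cluster (median shift 1.09). Centring on the array median (median shift 0.11) gave 1342 lower and 1028 higher calls, against 1473 and 492. Without dim clusters, 1092 were called, with 218 ORs and 2 MOR28 clusters lower. The methods' t-test, run without the study's mature OSN correction, called 2 MOR28 clusters and 724 ORs lower. At its own threshold it called 923 clusters, 482 ORs lower and 0 MOR28 clusters. These counts are thus not those of the study's own tests. Blocking on title series, or weighting arrays, gave 1 OR higher, and 0 to 1 with 1 mouse left out; the cause was not tested. No paired analysis was possible because the labels match no knockout to a particular control; the nearest design, title series as a block, kept the calls of the trio, Lhx2 and Omp (2690 clusters called).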
